A study of Mus musculus with 6 samples.

Results

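Wnt ligands, their receptors, secreted inhibitors, the R-spondin arm and nuclear effectors were examined in mouse branchial arch 1, dissected at embryonic day 11.5. The members are 53 named genes, and a gene counts as measured where a probe set of the array carries its symbol alone; 52 of them were measured, among 18194 genes in all. Tcf7 was not analysed here. Where several probe sets name a gene, the one brightest on average stands for it, and none of the 52 lies on a sex chromosome. Branchial arch 1 is the embryonic tissue that forms the jaws, built from neural crest mesenchyme with an epithelial cover, a muscle core, vessels and nerves. Ezh2 is the methyltransferase of Polycomb repressive complex 2 (PRC2), which keeps developmental genes silent by methylating histone H3. The study compared 3 samples from Ezh2lox/lox embryos (labelled control here) with 3 from Wnt1Cre Ezh2lox/lox embryos (labelled mutant). Both groups thus carry the conditional alleles, and the second adds a Cre recombinase that Wnt1 regulatory sequences drive in the neural crest lineage. Epithelium, skeletal muscle, vessel endothelium and blood of the arch lie outside that lineage and were part of each sample. The labels name branchial arch 1 as the tissue and call the 3 samples of a group biological replicates. They do not say whether arches of several embryos were pooled in a sample.

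Wnt proteins are secreted lipid-bearing signals that bind Frizzled (Fzd) receptors with the co-receptors Lrp5 and Lrp6. In the canonical branch this stabilises beta-catenin, which joins Lef and Tcf factors on target genes such as Axin2, while other branches act through Ror receptors and the planar polarity proteins. R-spondins bind Lgr receptors and remove the ubiquitin ligases Znrf3 and Rnf43 from the cell surface, which leaves more Frizzled there and raises the response to Wnt. In the developing face, Wnt ligands come from both epithelium and mesenchyme and act on the outgrowth of the jaw processes.

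Before the comparison, the labels were set against the data. Ezh2 itself, on 1 probe set, gave a log2 signal of 11.63 ± 0.15 under the control label and 11.66 ± 0.01 under the mutant label (mean ± SD, n = 3 each). Whether that probe set covers the deleted part is not known from the sources used here, and its level therefore bears on no label. Sex-linked genes split by label, the controls reading as male and the mutants as female, with mean Xist signals of 5.62 and 13.03, so that sex and genotype label cannot be told apart in any value below. Several Hox genes, a family that PRC2 holds silent in the jaw arch, were high in the labelled-control arches. Hoxa10, among the largest differences, read 10.57 ± 0.23 there and 3.86 ± 0.07 in the labelled-mutant arches. Others were dim under both labels, such as Hoxb1 at means of 3.24 and 3.07. Of 33 measured Hox genes 22 fell and 0 rose, beside 4.3% and 1.23% of all genes. This direction is opposite to the textbook effect of losing PRC2, and groups are named by their labels throughout. Whether the labels were exchanged could not be settled from the sources used here. If they were, every rise and fall below, including the split of 9 lower and 1 higher member, would turn. Of 12 measured markers of arch mesenchyme, all but Alx4 (4.94 to 5.17) lay above the array median on every array, with Prrx1 between 12.23 and 12.64 and Barx1 between 10.45 and 10.82. Signals ran from 2.63 to 14.68 with a median of 5.81 on each array. With 3 arrays a group, precision is limited by their number.

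The R-spondin arm and the secreted antagonists held most of the members that changed, while the general target gene Axin2 and the Lef and Tcf genes did not pass the test. Rspo1, Wif1, Rspo3, Lgr5, Sfrp1, Wnt5a, Lgr4, Sfrp2 and Fzd8 fell in the labelled-mutant arches, and Dkk4 rose. Of the 52 measured members 10 passed (limma, Benjamini-Hochberg adjusted p below 0.05 over all genes), 9 lower and 1 higher, or 19.2%, beside 5.53% of all genes, of which 1.23% were higher and 4.3% lower. The median difference was -0.08 over the members and 0.02 over all genes, on the log2 scale as labelled mutant minus labelled control. The groups of 3 arrays did not overlap for 21 members (40.4%), beside 24.9% of all genes; 8 of these were higher and 13 lower, beside 13% and 11.9% of all genes. Of the 42 members that did not pass, the 95% interval of the difference stayed within a 2-fold change either way for 40. The count of 10 fell to 4 (Rspo1, Lgr5, Wnt5a and Dkk4) when low signals were raised to each array's 20th percentile (floored signals), although no signal of these genes lay under the floor. It was 7 without labelled-control array 2, without labelled-mutant array 2 or without labelled-mutant array 3, each time without Fzd8, Lgr4 and Sfrp2.

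**Figure D1:**
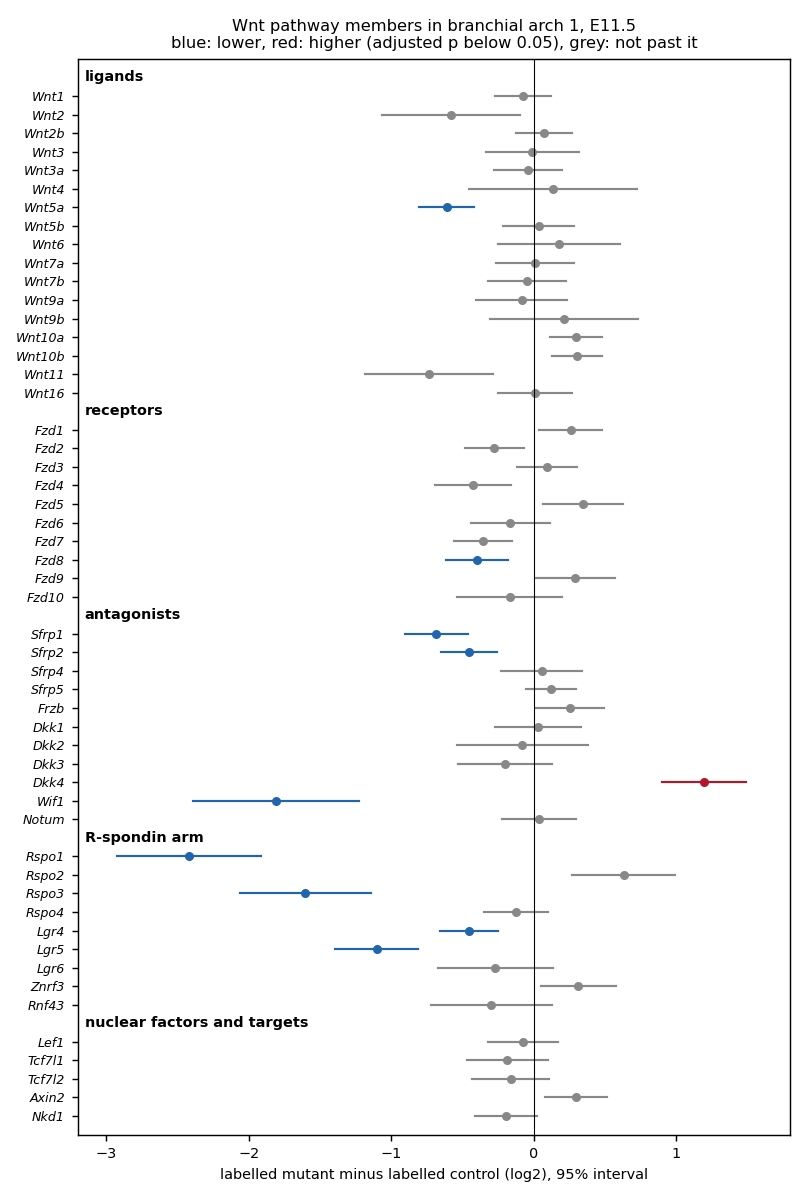
Difference between the labelled-mutant and labelled-control arches (horizontal axis, log2) for the 52 measured members, ordered by role; points are estimates from 3 arrays per group and lines their 95% intervals from limma. The 9 members in blue fell and Dkk4, in red, rose, with the largest falls at Rspo1 (-2.42), Wif1 (-1.81) and Rspo3 (-1.60). The 5 nuclear factors and targets lie between -0.19 and 0.30, and the interval of Axin2 (0.08 to 0.51) excludes 0.

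Promoter sequence of 3 members is given for what follows: Rspo1 and Wif1, which had the largest falls, and Axin2, the general target, which did not pass. PRC2 in mammals is known to gather at promoters rich in CG dinucleotides, and CG pairs are in capitals. Each sequence is the 250 bases before the gene's start, 5′ to 3′ on its own strand, from RefSeq on GRCm38.p6: chr4:124986180-124986429 (plus strand) for Rspo1, chr10:121033754-121034003 (plus strand) for Wif1 and chr11:108920099-108920348 (plus strand) for Axin2.
Rspo1: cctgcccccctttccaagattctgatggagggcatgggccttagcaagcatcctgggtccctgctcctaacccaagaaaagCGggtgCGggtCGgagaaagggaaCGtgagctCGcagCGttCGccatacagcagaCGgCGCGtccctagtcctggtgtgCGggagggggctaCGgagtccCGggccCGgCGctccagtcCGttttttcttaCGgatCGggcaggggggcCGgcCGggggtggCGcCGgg
Wif1: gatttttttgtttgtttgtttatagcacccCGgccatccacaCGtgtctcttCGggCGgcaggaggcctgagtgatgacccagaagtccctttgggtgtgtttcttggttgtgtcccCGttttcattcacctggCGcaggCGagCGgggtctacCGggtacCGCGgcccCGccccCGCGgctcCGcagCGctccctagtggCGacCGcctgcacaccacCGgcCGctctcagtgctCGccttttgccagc
Axin2: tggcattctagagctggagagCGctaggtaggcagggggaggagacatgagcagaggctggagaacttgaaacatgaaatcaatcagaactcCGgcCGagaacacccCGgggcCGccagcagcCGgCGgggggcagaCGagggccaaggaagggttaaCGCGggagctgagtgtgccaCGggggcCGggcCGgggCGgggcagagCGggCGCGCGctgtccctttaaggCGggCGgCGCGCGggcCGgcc
The counts of CG pairs were 22 in Rspo1, 21 in Wif1 and 24 in Axin2, beside a median of 6 over 32851 promoter windows of the same length. They exceeded 85.2%, 83.7% and 88.0% of those windows. Sfrp2 and Lgr4, the other members that fell and had a window, held 16 and 10 CG pairs, above 74.6% and 62.2% of windows. The letters CTTTGAT, a core of the sites that Lef and Tcf factors bind, were searched on both strands and found in none of these 3 windows, beside 3.21% of all windows. A match, or its lack, describes these letters alone. Of the members 36 had a window in the table, including 4 that passed the test. In 2 of the 36 (Wnt5b and Wnt11, neither past the threshold) a window held these letters. Members that did not pass had windows with 2 (Rnf43) to 48 (Wnt9a) CG pairs, so high counts were not particular to members that fell. No binding or histone mark was measured here.

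Among the ligands, only Wnt5a passed. Wnt5a, a ligand of the mesenchyme that acts mainly outside the beta-catenin branch, read 10.16, 10.27 and 10.33 on the labelled-control arrays and 9.70, 9.69 and 9.54 on the labelled-mutant arrays. The groups stood apart by more than their own spread, and Wnt5a fell by 0.61 (standard error 0.08, limma adjusted p = 0.0046, 1.53-fold). Its other 3 probe sets had differences of -0.53, -0.60 and -0.14, of the same sign and not past the threshold. Wnt11, another ligand of the noncanonical branch, read 6.51, 6.97 and 7.40 against 6.27, 6.34 and 6.06. All labelled-mutant arrays lay below all labelled-control arrays, yet the labelled-control arrays spread widely and the difference of -0.74 did not pass (standard error 0.20, limma adjusted p = 0.0748). It passed without labelled-control array 1 (-0.96, limma adjusted p = 0.0159).

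Wnt10a and Wnt10b, closely related ligands that signal through beta-catenin, differed slightly the other way. Wnt10a read 6.00, 6.15 and 5.99 against 6.40, 6.29 and 6.33, and Wnt10b 5.91, 6.02 and 5.92 against 6.24, 6.19 and 6.31. Neither pair of groups overlapped, and the differences of 0.30 and 0.30 did not pass (limma adjusted p = 0.0748 and 0.0625). Wnt2 had a difference of -0.58 with a 95% interval of -1.07 to -0.10 and overlapping groups. Wnt7b, an epithelial ligand, read 7.88, 7.76 and 8.12 against 8.05, 7.87 and 7.70, with an interval of -0.32 to 0.23. In all, 1 of 17 ligands fell and 0 rose (5.88%), near the 5.53% of all genes, with a median difference of 0.01. For 11 of the 17 the interval lay within 0.5 of 0 on the log2 scale. Wnt1, whose regulatory sequences drive the Cre, read between 4.33 and 4.57 on all 6 arrays. It was 1 of 6 ligands that lay below the array median of 5.81 on every array, where small differences say little.

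Several ligands of the epithelium varied between samples of the same label. Wnt4 read 7.21, 7.71 and 8.44 on the labelled-control arrays, Wnt9b 5.96, 6.44 and 6.82, and Wnt6 7.03, 7.17 and 7.78, each highest on array 3. Over the 17 ligands, labelled-control array 3 was the highest of its group for 10, and over 12 epithelial marker genes (such as Epcam, Krt14 and Trp63) for 12, beside 41.4% of all genes. The same array was the highest for 5 of 6 macrophage, 4 of 5 erythroid and 3 of 6 endothelial markers, and for 8 of 12 planar polarity genes. The mean log2 signal of the epithelial markers was 8.55, 8.62 and 9.24 on the labelled-control arrays and 8.83 to 8.96 on the labelled-mutant arrays. These samples are bulk tissue, so a larger share of epithelial cells and more RNA per cell cannot be told apart, and the part of epithelial or other cell content in the ligand values was not tested.

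**Figure D2:**
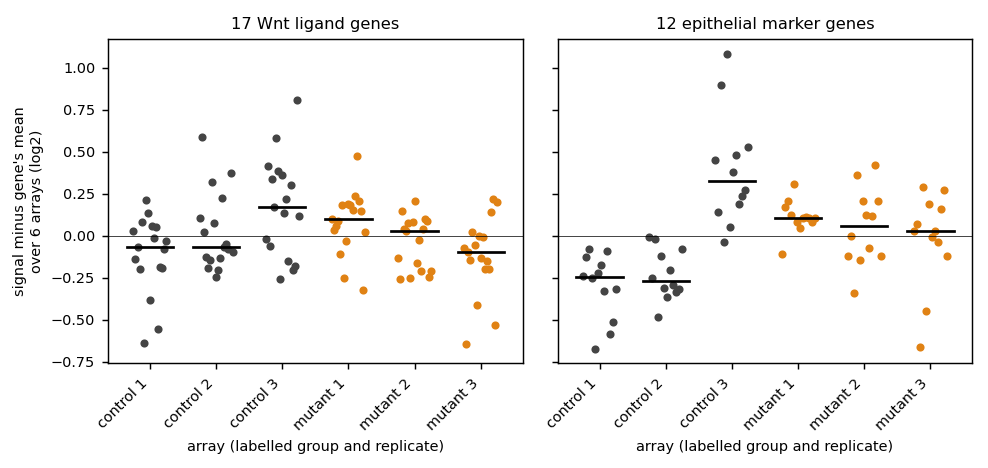
Signal of each gene minus its own mean over the 6 arrays (vertical axis, log2) for 17 Wnt ligand genes (left) and 12 epithelial marker genes (right), by array; each point is a gene and the bar is the median. Labelled-control array 3 has the highest median in both panels, 0.17 for ligands and 0.33 for epithelial markers.

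The Frizzled receptors had small differences in both directions. Fzd8 read 7.47, 7.77 and 7.57 on labelled-control arrays and 7.15, 7.28 and 7.18 on the labelled-mutant arrays. The groups did not overlap and Fzd8 fell by 0.40 with a standard error of 0.10, just past the threshold (limma adjusted p = 0.0492). It no longer passed without any 1 array other than labelled-control array 1, for example at adjusted p = 0.184 without labelled-mutant array 3 (limma). Its dimmer probe set fell by 1.06, from 6.35 to 5.29 (limma adjusted p = 0.0035 over all probe sets), and the mean of both fell by 0.73 (limma adjusted p = 0.0042). Fzd7 and Fzd4 had differences of -0.36 and -0.43 with groups that did not overlap (limma adjusted p = 0.0554 and 0.0831). For Fzd7, which read 10.69, 10.82 and 10.55 against 10.33, 10.29 and 10.37, the dimmer probe set went the other way by 0.23. Without labelled-control array 3 it passed (limma adjusted p = 0.0301).

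Fzd2 read 11.79, 11.63 and 11.50 against 11.31, 11.39 and 11.39. Its difference of -0.28 did not pass, and its other probe sets differed by 0.02 and -0.01. Fzd3, a receptor of the polarity branch, read 10.56, 10.34 and 10.60 against 10.60, 10.51 and 10.67, with a 95% interval of -0.12 to 0.31. Fzd1, Fzd5 and Fzd9 had differences of 0.26, 0.34 and 0.29, none past the threshold (limma adjusted p = 0.193, 0.177 and 0.252). In all, 1 of 10 receptors fell and 0 rose, beside 5.53% of all genes called. The groups of 6 did not overlap, 4 lower and 2 higher, beside 24.9% of all genes.

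The secreted antagonists gave both the second largest fall and the only rise. Wif1, which binds Wnt proteins outside the cell, read 6.51, 7.21 and 7.08 on the labelled-control and 5.68, 4.75 and 4.95 on the labelled-mutant arrays. All labelled-mutant values were lower, with the first array nearest to the other group. Wif1 fell by 1.81 with a standard error of 0.25, a 3.50-fold difference (limma adjusted p = 0.0052). Dkk4, a Dickkopf protein that blocks the co-receptor Lrp6, read 5.21, 4.83 and 5.29 against 6.21, 6.25 and 6.45. Every labelled-mutant array lay above every labelled-control array, and the labelled-control arrays lay below the array median. Dkk4 rose by 1.20 with a standard error of 0.13, or 2.29-fold (limma adjusted p = 0.0015), from a single probe set.

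Sfrp1 and Sfrp2, secreted Frizzled-related proteins that bind Wnt ligands, both fell. Sfrp1 read 10.73, 10.47 and 10.40 against 9.88, 9.83 and 9.84, and fell by 0.68 with a standard error of 0.10 (limma adjusted p = 0.0054). Its labelled-mutant values lay close together and under all labelled-control values. The other 4 probe sets of Sfrp1 had differences between -1.14 and -0.22, none past the threshold. Sfrp2 read 10.20, 10.33 and 10.33 against 9.95, 9.75 and 9.78, and fell by 0.46 with a standard error of 0.09 (limma adjusted p = 0.0178). That call was lost without labelled-control array 2, labelled-mutant array 2 or labelled-mutant array 3 (limma adjusted p = 0.0689, 0.0927 and 0.0966). With floored signals Wif1, Sfrp1 and Sfrp2 missed the threshold at limma adjusted p = 0.0803, 0.0515 and 0.0613, although their differences did not change.

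Frzb, a further Frizzled-related protein known from cartilage, read 10.83, 10.69 and 11.02 against 11.00, 11.23 and 11.07. The groups overlapped and the difference of 0.25 did not pass (limma adjusted p = 0.243). Dkk1, which blocks the canonical branch in head development, read 8.57, 8.74 and 9.08 against 8.69, 8.92 and 8.87, and its 95% interval ran from -0.27 to 0.33. Sfrp5 had groups that did not overlap at a difference of only 0.12. Altogether 3 of 11 antagonists fell, 1 rose and 7 did not pass (36.4% called, beside 5.53% of all genes), with a median difference of 0.03.

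**Figure D3:**
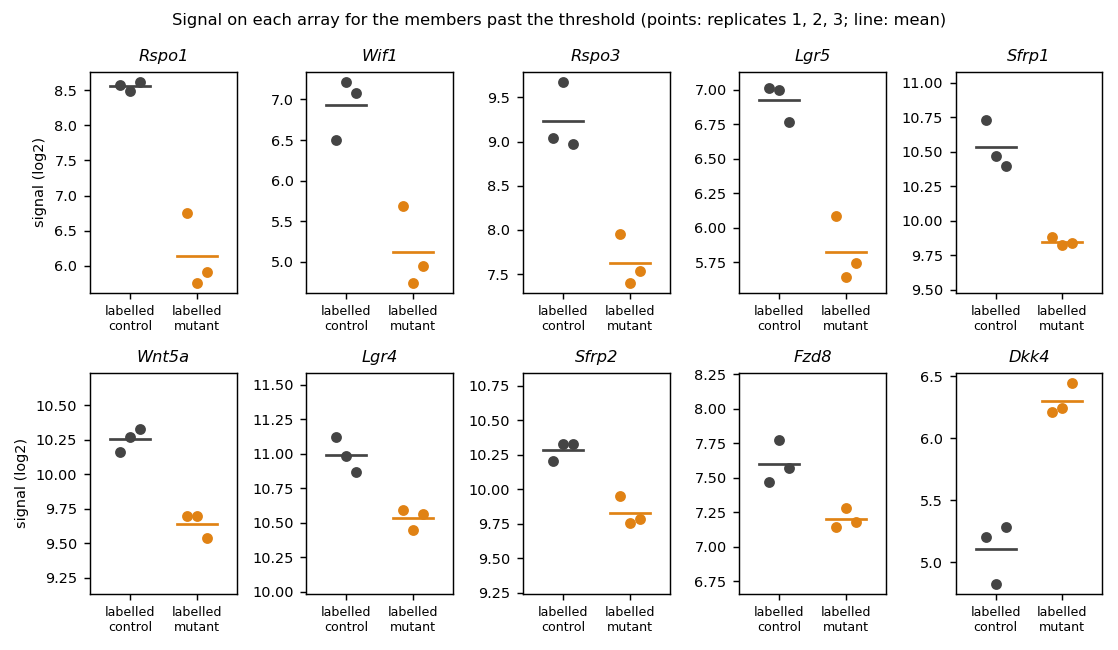
Log2 signal (vertical axis, a separate range in each panel) on each of the 6 arrays for the 10 members past the threshold; points are arrays 1, 2 and 3 of each label and lines are group means. In no panel do the groups overlap, and in Rspo1, Wif1, Rspo3 and Lgr5 the first labelled-mutant array lies nearest to the labelled-control arrays.

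The R-spondin arm changed at the level of ligands and of receptors. Rspo1 read 8.57, 8.49 and 8.62 on the labelled-control and 6.75, 5.76 and 5.91 on the labelled-mutant arrays. The labelled-control values were nearly equal, and the labelled-mutant values were far lower but spread more widely. Rspo1 fell by 2.42 with a standard error of 0.22, a 5.35-fold difference (limma adjusted p = 5.7e-04), the largest among the members. Rspo3 read 9.04, 9.67 and 8.97 against 7.95, 7.40 and 7.53. It fell by 1.60 with a standard error of 0.20, or 3.04-fold (limma adjusted p = 0.0031), while its dim second probe set differed by -0.28. The mean of both fell by 0.94, and with floored signals the call was lost (limma adjusted p = 0.0661).

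Rspo2, the R-spondin known to be needed for limb and lower jaw growth, went the other way without passing. It read 10.41, 10.54 and 9.86 against 10.87, 10.94 and 10.90, so that every labelled-mutant array was higher. The difference was 0.63 with a standard error of 0.16 (limma adjusted p = 0.0587), and it passed without labelled-control array 3 (0.43, limma adjusted p = 0.0288). Rspo4 was dim, between 4.43 and 4.74 on all arrays. Thus 2 of 4 R-spondin genes fell by over 2-fold, beside 1.2% of all genes, while Rspo2 had a difference of opposite sign. The contrast between Rspo2 and the R-spondin genes that fell was not tested.

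Lgr5, a receptor for R-spondins that is itself a target of beta-catenin in many tissues, read 7.02, 7.00 and 6.77 against 6.09, 5.64 and 5.74. The groups stood apart, and Lgr5 fell by 1.10 with a standard error of 0.13, or 2.15-fold (limma adjusted p = 0.0021). A second, dim probe set of Lgr5 had a difference of -0.03, and the mean of both fell by 0.57. Lgr4, a related receptor for R-spondins, read 11.12, 10.98 and 10.87 against 10.59, 10.45 and 10.56. It fell by 0.46 with a standard error of 0.09 (limma adjusted p = 0.0214). Its call was lost without labelled-control array 2 (limma adjusted p = 0.0701), labelled-mutant array 2 (0.106) or labelled-mutant array 3 (0.0847). Averaging its probe sets (-0.28, limma adjusted p = 0.0874) or flooring the signals (0.0729) also lost it. Lgr6 read between 5.04 and 5.85 on all arrays and did not pass.

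The ligases that R-spondins act against did not pass. Znrf3, also a feedback target of the canonical branch, read 8.80, 8.46 and 8.68 against 9.03, 9.06 and 8.78, a difference of 0.31 (limma adjusted p = 0.185). Rnf43 read between 4.72 and 5.64 with overlapping groups. In this arm 4 of 9 genes fell and 0 rose (44.4% called, beside 5.53% of all genes), with a median difference of -0.30.

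**Figure D4:**
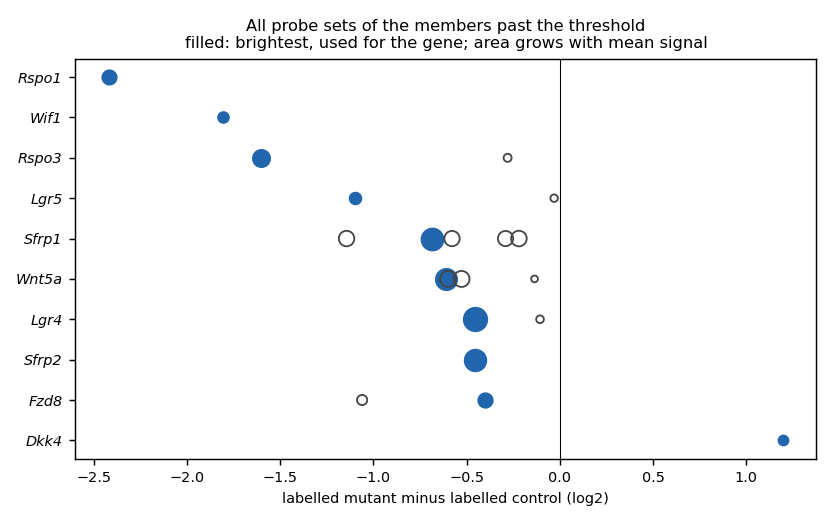
Difference between labelled-mutant and labelled-control arches (horizontal axis, log2) for every probe set of the 10 members past the threshold; filled points are the brightest probe sets, used for the gene, and area grows with mean signal. All 11 further probe sets lie on the same side of 0 as the brightest one, and 9 of them lie nearer to 0.

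Of the nuclear factors and target genes, 0 of 5 passed with limma, against 1 (Axin2) at an unadjusted p under 0.05. Axin2, a scaffold that limits beta-catenin and a target in most tissues, read 9.12, 9.14 and 9.25 against 9.64, 9.41 and 9.35. The labelled-mutant arrays were all higher, and the difference of 0.30 had a 95% interval of 0.08 to 0.51 (limma adjusted p = 0.137). Its dim second probe set had a difference of -0.02. Lef1 read 10.25, 10.29 and 10.58 against 10.42, 10.24 and 10.23, with an interval of -0.32 to 0.17. Tcf7l1, mainly a repressor of target genes, read 10.37, 10.56 and 10.17 against 9.98, 10.25 and 10.31, with an interval of -0.47 to 0.10. For Tcf7l2 the interval was -0.43 to 0.11, and for Nkd1, a cytoplasmic feedback inhibitor, -0.41 to 0.03. On the brightest probe sets, every interval of this class thus stayed well within a 2-fold change. Dimmer probe sets of the class differed by -0.45 (Tcf7l2, standard error 0.19) to 0.09 (Nkd1), none past the threshold. That of Lef1 differed by -0.28 with a standard error of 0.23.

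A further 63 genes of the pathway outside the members were measured, of which 7 fell and 0 rose (11.1%, beside 5.53% of all genes). Tle2, a co-repressor that binds Lef and Tcf factors, fell by 1.08, from 8.54, 8.59 and 8.57 to 7.54, 7.40 and 7.51 (limma adjusted p = 1.3e-04). This call held with each array left out. The related Tle4 fell by 0.39 (limma adjusted p = 0.0338). Ror1 and Ror2, receptors for Wnt5a, fell by 0.58 and 0.48, the only 2 of 12 genes for secretion and co-receptors to pass (limma adjusted p = 0.0285 and 0.0292). Of 15 further inhibitors and feedback genes Sostdc1 and Draxin fell by 0.77 and 0.63, and of 10 further polarity genes Daam2 fell by 0.47 (limma adjusted p = 0.0343, 0.0120 and 0.0421). The calls of Ror1, Ror2, Sostdc1, Tle4 and Daam2 were lost without labelled-control array 1 or 2 or labelled-mutant array 2 or 3 in turn, and that of Draxin without labelled-mutant array 3, at limma adjusted p between 0.0514 and 0.159. Those of Tle4 and Daam2 were lost without labelled-control array 3 too (0.0654 and 0.0612). With floored signals all of these calls but that of Tle2 were lost, at limma adjusted p between 0.0760 and 0.155. Averaging the probe sets brought Ror1 to -0.27 and Ror2 to -0.32 (limma adjusted p = 0.184 and 0.0769), so that neither passed. Of 24 cytoplasmic and nuclear core genes, 22 did not pass, Ctnnb1 (beta-catenin) among them at 14.00 to 14.15 on every array.

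Some marker genes for cell types of the arch differed between the labels as well, beside 5.53% of all genes called. Of 12 neural markers 6 fell and 0 rose, and their mean log2 signal was 6.69 to 6.76 on the labelled-control and 5.96 to 6.07 on the labelled-mutant arrays. Of 5 skeletal muscle markers 4 fell, with mean signals of 7.49 to 7.73 and 6.32 to 7.01. Arch mesenchyme markers gave 5 rises (Msx1, Dlx1, Dlx2, Dlx5 and Hand2, by 0.51 to 1.18) and 1 fall (Pdgfra, -0.63) among 12. Their mean signals were 9.77 to 9.91 and 10.12 to 10.23. The other 6 (Prrx1, Prrx2, Twist1, Alx1, Alx4 and Barx1) did not pass, with differences of -0.20 to 0.20, so the mean does not describe the whole list. Of 6 endothelial markers 0 passed with limma, and 0 at an unadjusted p under 0.05, and epithelial markers gave 1 rise among 12. Of 5 erythroid and 6 macrophage markers 1 each fell. Neurod1 and Hba-a1 were the only markers of these lists below the 25th percentile (4.33) on every array. The part of cell composition in the Wnt values was not tested.

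**Figure D5:**
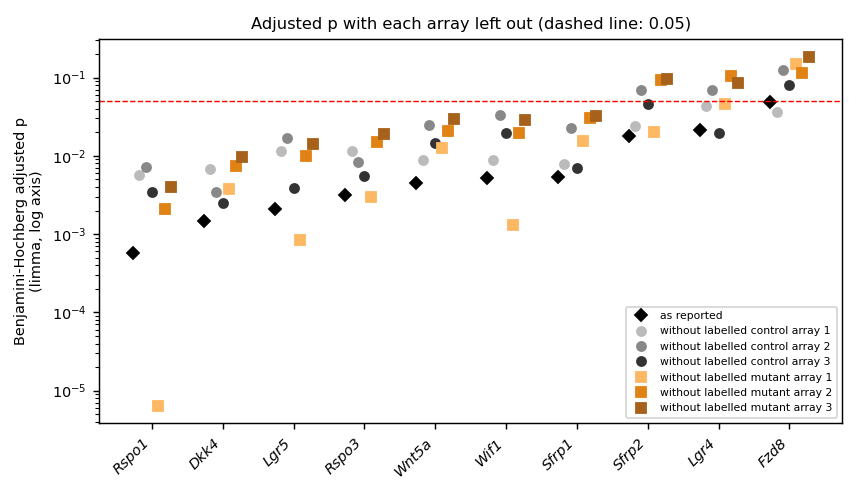
Benjamini-Hochberg adjusted p from limma (vertical log axis; dashed line at 0.05) for the 10 members past the threshold, with all arrays (diamonds) and with each array left out (circles for labelled-control, squares for labelled-mutant arrays). Rspo1, Dkk4, Lgr5, Rspo3, Wnt5a, Wif1 and Sfrp1 stay under the line each time, and Sfrp2, Lgr4 and Fzd8 cross it.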

How the data were processed

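Total RNA of 6 samples was labelled with biotin for microarrays, per the labels' protocols. The deposited values are log2 signals of 45101 probe sets; the scale was inferred from their range, and their quantiles coincide across arrays, so a general shift in signal would not be seen. The sources used here do not state the authors' background correction, summary method or software. Gene symbols come from the array platform's 2016 annotation (34958 with 1 symbol, 932 with several, 9211 with none); those with 1 symbol entered, as the brightest probe set per gene. Labelled mutant minus labelled control was fitted with limma 3.58.1 in R 4.3.3 (lmFit, eBayes, two-sided, no covariate), with Benjamini-Hochberg adjustment over 18194 genes, a threshold of 0.05 and no filter on dim genes. P-values set the difference between labels against the spread between samples of a label, which limma moderates over all genes. The fit was tested on simulated data. Members named with values are those past the threshold and the 2 brightest of each role; other members given with values were chosen after those values were seen. Promoter sequences are RefSeq's on GRCm38.p6. Members and lists were chosen with earlier results of these data known. Alternatives were a replicate block, further quantile normalization, median centring, the mean of probe sets, floored signals, a filter on dim genes, trend and robust settings, array weights, testing every probe set, and leaving out each array.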

Additional observations from a re-analysis of the deposited data

How the results depend on the processing

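With the replicate block 657 genes passed in place of 1007, and 7 members in place of 10, Fzd8, Lgr4 and Sfrp2 missing the threshold (limma adjusted p = 0.0657, 0.0513 and 0.0680). The block stands here only as an alternative, because the labels do not say that equal numbers pair samples. Deviations of arrays with the same number correlated at -0.21, -0.12 and -0.07, and those with different numbers at -0.08 to 0.19. Deviations of 3 arrays around their own mean cannot decide whether samples were paired. With floored signals 4 members passed, 3 of them lower, and 329 of all genes. The differences of the 10 called members stayed as they were, since no signal of theirs lay under the floor. Calls lost this way came with the spread that limma moderates over all genes and the adjustment over them. With array weights 14 members passed, 12 lower and 2 higher, with Fzd4, Fzd7, Wnt11 and Rspo2 added. Trend and robust settings exchanged Fzd8 for Fzd7 (limma adjusted p = 0.0547 and 0.0308). With each array left out in turn, 7 to 11 members passed, 6 to 10 lower and 1 to 2 higher, and 435 to 1021 of all genes (551 without labelled-control array 2, 481 without labelled-mutant array 2, 435 without labelled-mutant array 3). The difference of Wnt7b turned to 0.042 when its probe sets were averaged and ran from -0.14 to 0.0515 with each array left out, and that of Lef1 ran from -0.14 to 0.0267. Of 38 single genes followed through 15 alternatives, 20 kept direction and side of the threshold in all of them and 16 changed side in at least 1; the cause was not tested. Further quantile normalization and median centring could hardly move a value, since the arrays already share their quantiles, and their 10 member calls say nothing about stability.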

Other observations

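The labelled-mutant arrays were not alike in several of the members that fell. For 8 of the 9 members that fell, labelled-mutant array 1 was the highest of its group, Fzd8 being the exception. The margin over the next array was slight for Wnt5a (9.695 against 9.693), Lgr4 (10.59 against 10.56) and Sfrp1 (9.884 against 9.838). Among all 783 genes that fell labelled-mutant array 1 was the highest for 64.4%, and among all genes tested for 43.3%. Rspo1 read 6.75 on that array against 5.76 and 5.91 on the others, and the muscle regulator Myog read 6.79 against 5.15 and 6.12.

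Of 33 members with several probe sets, all probe sets had the same sign for 23. The second probe set of Fzd8 had a larger difference (-1.06) than the brightest one (-0.40), and it was the only 1 of 11 further probe sets of the 10 called members to pass when every probe set was tested.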
